A study of Mus musculus with 37 samples.

Results

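The genes described here are the nuclear-encoded subunits of the oxidative phosphorylation machinery, together with a few proteins that share their gene names or serve the same complexes. They were chosen by symbol: genes named Nduf with a subunit letter and number, Sdha to Sdhd, Uqcr, Cox4 to Cox8 and Atp5, plus Cox17 and Cycs. The rule found 86 genes among the 23947 of the deposited table, and none of its criteria used a measured value. Of the 86, 35 belong to complex I, 4 to complex II, 8 to complex III, 21 to complex IV, 17 to complex V and 1, Cycs, is the electron carrier cytochrome c. Ndufa4, first assigned to complex I, was placed with complex IV, where its protein is found. The rule also takes in Cox17 and Cox7a2l, which serve complex IV assembly and the joining of complexes, and Atp5s and Atp5sl, which are not subunits of ATP synthase.

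The series holds single-cell RNA-seq of 37 cells labelled as adipose tissue macrophages. They were sorted from epididymal white adipose tissue, the visceral fat pad beside the testis, of male C57BL/6J mice of matched age. No age is stated in the labels. The mice ate a high-fat diet with 60% of energy from fat, 20% from carbohydrate and 20% from protein, and the fat was digested with collagenase D or IV for 30 min. Single cells were captured on a Fluidigm C1 microfluidic chip, and polyadenylated RNA was made into Nextera XT libraries. All 37 cells carried 1 genotype, 1 diet and 1 cell type label, and no animal is named for any cell, so they form 1 group that counts as 1 sample. There is no lean control here, and no comparison between conditions could be made. All values below describe these 37 cells, without p-values, and the cell numbers, 0 to 36, are those of the sample titles.

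Oxidative phosphorylation takes electrons from NADH at complex I and from succinate at complex II, passes them through ubiquinone to complex III and through cytochrome c to complex IV, where oxygen is reduced. Complexes I, III and IV pump protons across the inner mitochondrial membrane, and complex V, the ATP synthase, lets them return and makes ATP. Most subunits are encoded in the nucleus and imported, while a small set, including catalytic subunits of complex IV, is encoded in mitochondrial DNA. Those mitochondrially encoded genes were searched for under their mt- symbols, were not found in the deposited table and were not analysed here. In macrophages, inflammatory activation is known for a shift towards glycolysis, and alternative activation for reliance on oxidative phosphorylation.

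Macrophage genes were found in every cell, with 2 cells standing apart. Each cell expressed 8 to 14 of 15 matched macrophage genes at 1 FPKM or more (fragments divided by transcript length and by the mapped total). No cell held 3 or more genes of any of the 13 other marker lists, except cells 7 and 27, which held 7 and 8 of the 8 fibroblast and progenitor genes. These 2 cells also had the lowest mean z values of the macrophage list, -1.51 and -1.69, where the next lowest was -0.95 in cell 18. The summed level of the fibroblast and progenitor list reached 10701 FPKM with cells 7 and 27 included and at most 604 FPKM in the other 35. Markers of brown adipocytes and of muscle, tissues in which some respiratory chain isoforms are made, were at 1 FPKM or more in none of the 37 cells. The FPKM sum per cell ran from 225528 to about 1841670, with 1224 to 3204 genes at 1 FPKM or more. Fragment counts are unknown; a stand-in, the value of 1 fragment estimated from the lowest values of each cell, differed 96.9-fold between cells. It was over 4 times the median in 6 cells (2, 7, 15, 17, 24 and 26, called shallow below). From their low-value genes the cells fell into a putative first library part, cells 0 to 19, and a second, cells 20 to 36, which the labels do not name.

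Most members of the set were expressed in these cells. Detection in a cell meant a value of at least 1 FPKM. Of the 86 members, 80 were detected in at least 1 cell, 75 in at least 5 cells and 50 in at least 19 of the 37 cells. The last count is 58.1% of the members, beside 4.03% of all 23947 genes of the table, and 19.6% of all genes were detected in at least 5 cells. At 10 FPKM the count was 34 members, beside 2.2% of all genes. Ndufs6 and Atp5f1, each in 19 cells, lay just inside the boundary, and Ndufs8 and Atp5g1, each in 18, just outside. Without the 2 cells with fibroblast genes 48 members were detected in a majority of the cells, and without the shallow cells 51.

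Values of a member were often either absent or high. Over the 3182 member values, 34.9% were listed at 0, 12.1% lay above 0 and under 1 FPKM, and 24.2% were at 100 FPKM or more. Among the other measured genes, those detected in at least 5 cells, 41.4% of values were at 0 and 9.28% at 100 FPKM or more. An exact 0 in an FPKM table can be a failed estimate, so such genes are described as listed at 0. A median was also taken over only the cells in which a member reached 10 FPKM, so by construction it cannot lie under 10 FPKM. For the 72 members with at least 5 such cells, it ranged from 14.6 to 985 FPKM, with a middle value of 148 FPKM. It was not set beside the same median of other genes. Members that reached 10 FPKM in more cells also had higher levels in them (Spearman rho 0.66 over 80 members, which are not independent replicates). The heat map of all members shows this pattern of blank and bright squares. Of the 11 common complex IV subunits, Cox6a1 and Cox4i1 were detected in all 37 cells, and the median over the 11 was 30 cells.

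**Figure D1:**
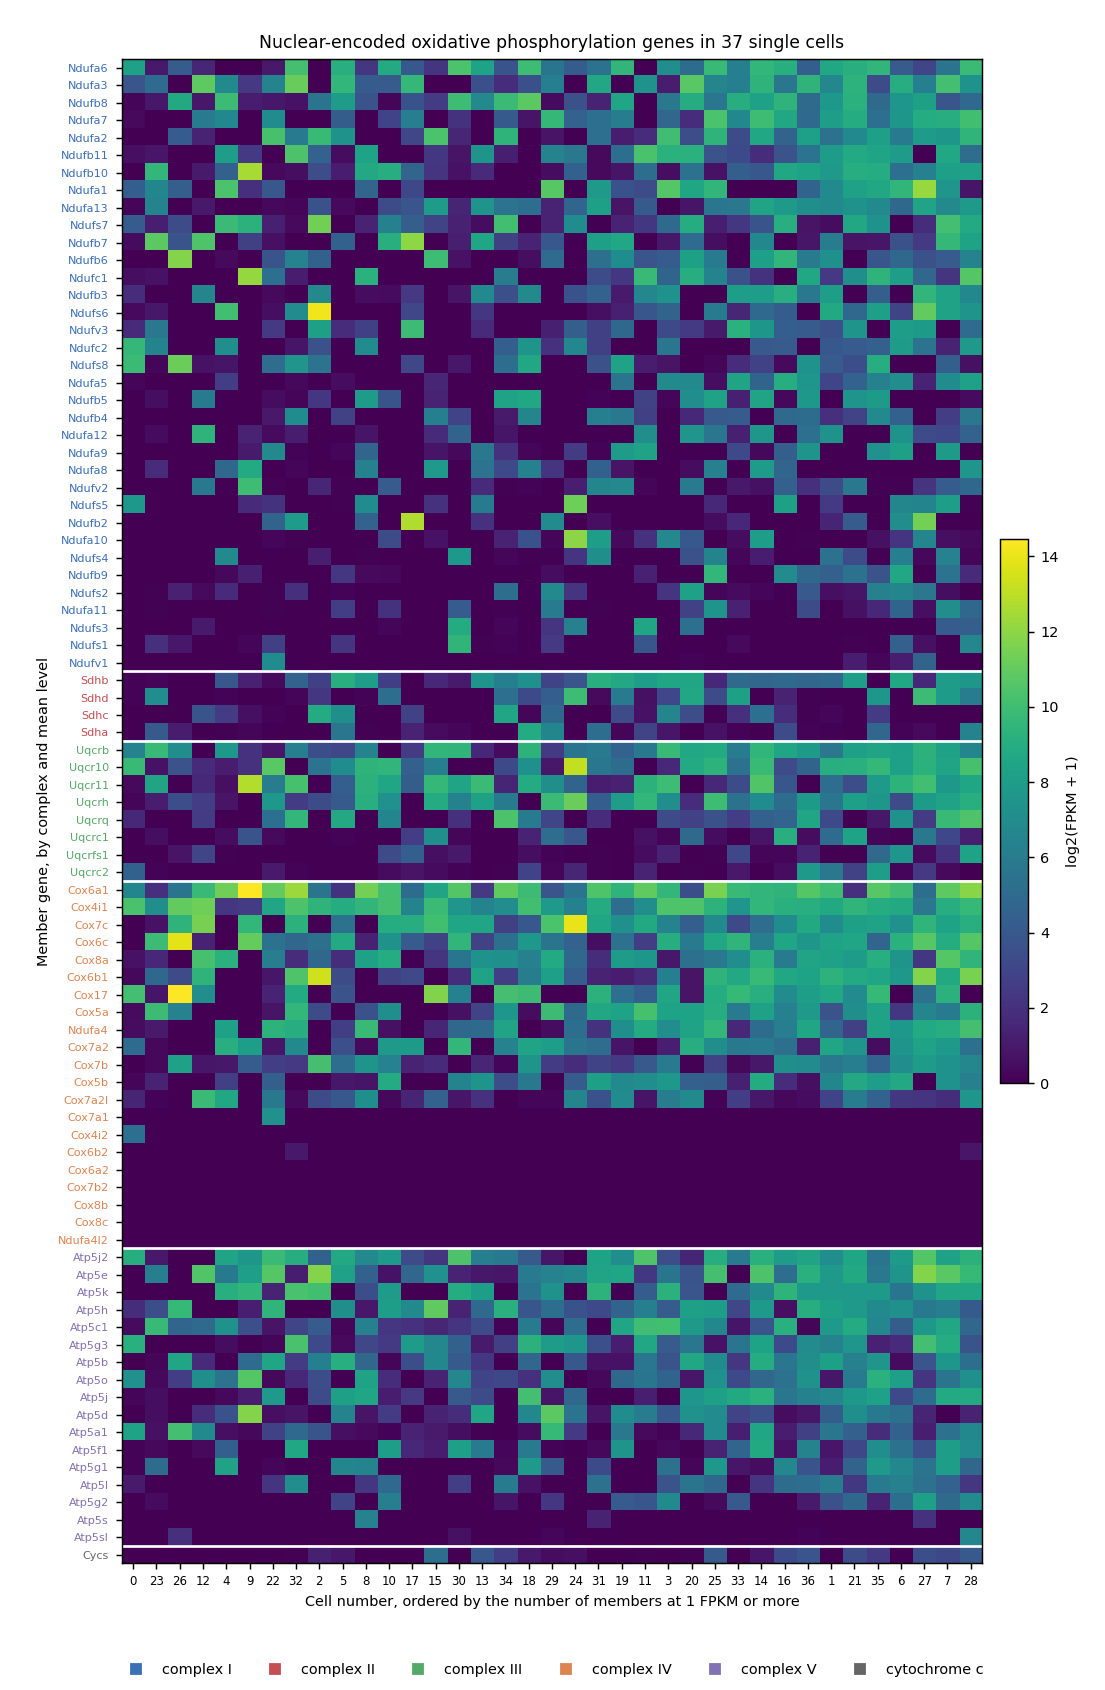
Level of each of the 86 members (rows, coloured and separated by complex, ordered by mean level within each) in each of the 37 cells (columns, in order of how many members were detected), as log2(FPKM + 1) on a colour scale. Cells range from 25 detected members on the left to 64 on the right, and 8 tissue isoforms of complex IV are almost entirely at 0.

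Complex IV, cytochrome c oxidase, held the members with the highest levels. Its 11 common subunits were all detected in at least 19 cells, and the median of their medians was 73.0 FPKM. Cox6a1, a small subunit at the dimer interface, was detected in all 37 cells, with a lowest value of 2.92, a median of 840.7 and a highest of 22464.5 FPKM. Its median ranked 33rd among all genes of the table. Cox6a1 was under 5 FPKM in cells 5, 13, 21 and 23, and its highest value, in cell 9, was far above the second highest of 4933 FPKM. Cox4i1, the ubiquitous form of subunit IV, which takes part in regulation by ATP, was also detected in all 37 cells, with a lowest value of 3.81, a median of 503 and a highest of 2430 FPKM in cell 12. It was under 5 FPKM in cells 4 and 9, so the cell with the highest Cox6a1 had one of the lowest Cox4i1 values. Cox7c was listed at 0 in 5 cells, had a median of 295 FPKM and reached 15996 FPKM in cell 24. The remaining common subunits had medians from 6.72 FPKM for Cox7b to 77.2 FPKM for Cox8a.

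Cox17, a chaperone that hands copper to cytochrome c oxidase, varied widely between cells. It was detected in 24 of 37 cells, 64.9% with an exact Clopper-Pearson 95% interval of 47.5% to 79.8%, which covers the sampling of cells only. It was listed at 0 in 11 cells, had a median of 82.3 FPKM and reached 22262 FPKM in shallow cell 26, where the next highest cell, shallow cell 15, had 3356 FPKM. Cox7a2l, which helps join complexes III and IV, had a median of 3.70 FPKM and was detected in 23 cells.

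Complex IV subunits come in isoforms, and these cells expressed the ubiquitous ones. Cox6a2, Cox7b2, Cox8b, Cox8c and Ndufa4l2 were listed at 0 in every cell, as were 12368 of the 23947 genes of the table. Detection in 0 of 37 cells allows a share of detected cells of up to 8.11% (3 counts of 37; the exact Clopper-Pearson upper limit is 9.49%). These limits cover the sampling of cells at this depth and set no limit on cells that express the gene, since widely detected members were also at 0 in some cells. Cox6a2 and Cox8b are known from heart, skeletal muscle and brown fat, and Cox7b2 and Cox8c from testis. Cox4i2, the form induced in low oxygen and known from lung, was detected in cell 0 alone at 37.1 FPKM. Cox7a1, the muscle and brown fat form, was detected in cell 22 alone at 156.9 FPKM, where Cox7a2, the widespread form, stood at 0.759 FPKM, under the detection threshold. Cox6b2, the testis form, stayed at or under 0.962 FPKM. Their partners were widespread: Cox6b1 was detected in 30 cells, Cox7a2 in 26, Cox7b in 28, Cox8a in 32 and Ndufa4 in 28. The plot of isoform sets shows each ubiquitous form spread over the scale beside a tissue form lying on the zero line.

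**Figure D2:**
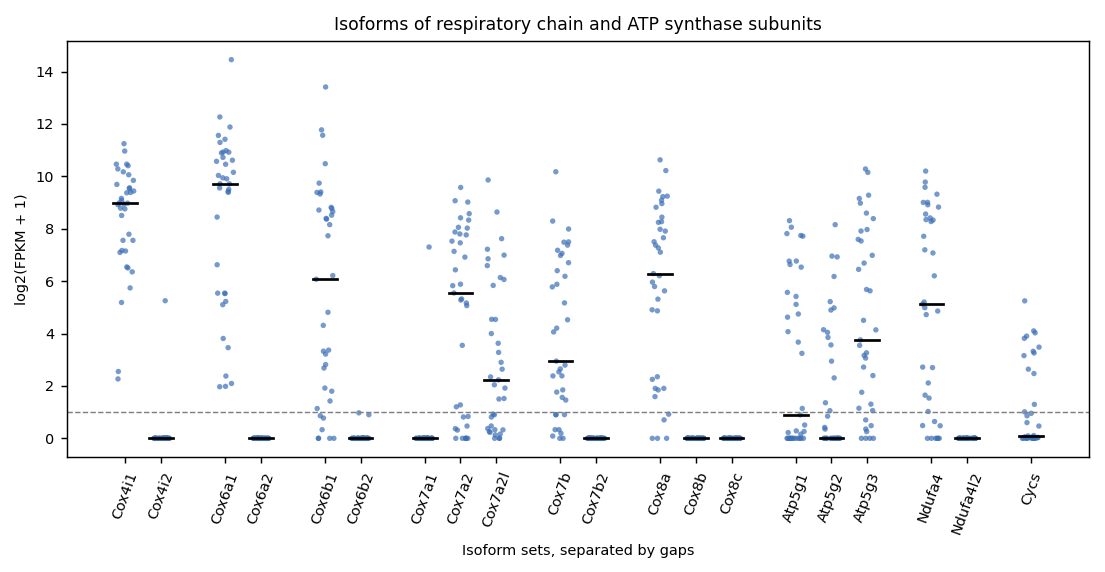
Level of each isoform in each of the 37 cells (points, shifted sideways at random for visibility) as log2(FPKM + 1), with the median over cells as a black bar and 1 FPKM as a dashed line. The tissue forms Cox6a2, Cox7b2, Cox8b, Cox8c and Ndufa4l2 lie at 0 in every cell, while Cox6a1 and Cox4i1 lie above the dashed line in all 37.

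The promoters of such pairs can be set side by side. Promoter windows, 250 bases before to 50 after a RefSeq start site on GRCm38.p6, were matched for 70 of the 86 members. They were searched on both strands for CCGGAAG (the core bound by ETS factors such as GABP), the NRF1 letters (GCGCA, any base, GCGC) and AAGATGGCG (bound by YY1), all known from promoters of respiratory chain genes. The stretches below run 5′ to 3′ on the gene's strand from 250 bases before the start site to 30 after it, with matches in capitals. Cox6a1 is shown as the member with the highest median, Cox8a and Cox8b as an expressed and an unexpressed isoform, Cox7a2 as an expressed gene without a match, and Ndufs6 as a member with 2 kinds of match in its window.
Cox6a1 (chr5:115348929-115349208, minus strand): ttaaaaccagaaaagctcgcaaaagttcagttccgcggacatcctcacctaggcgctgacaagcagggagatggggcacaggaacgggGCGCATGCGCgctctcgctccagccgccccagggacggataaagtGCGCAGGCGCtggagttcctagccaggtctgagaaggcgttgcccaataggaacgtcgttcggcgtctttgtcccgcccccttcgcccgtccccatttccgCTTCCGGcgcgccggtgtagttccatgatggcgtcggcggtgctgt
Cox8a (chr19:7217587-7217866, minus strand): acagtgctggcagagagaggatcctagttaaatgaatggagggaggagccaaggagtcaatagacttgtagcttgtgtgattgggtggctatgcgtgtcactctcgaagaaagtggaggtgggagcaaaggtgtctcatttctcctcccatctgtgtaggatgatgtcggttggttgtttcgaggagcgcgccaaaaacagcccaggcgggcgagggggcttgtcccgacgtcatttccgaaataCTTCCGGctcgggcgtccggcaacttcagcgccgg
Cox8b (chr7:140900417-140900696, minus strand): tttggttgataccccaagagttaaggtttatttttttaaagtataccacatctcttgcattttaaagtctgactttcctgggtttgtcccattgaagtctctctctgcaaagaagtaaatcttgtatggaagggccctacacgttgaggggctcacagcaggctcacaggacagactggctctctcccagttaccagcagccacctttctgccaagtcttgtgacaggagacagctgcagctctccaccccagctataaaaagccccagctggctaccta
Cox7a2 (chr9:79759824-79760103, minus strand): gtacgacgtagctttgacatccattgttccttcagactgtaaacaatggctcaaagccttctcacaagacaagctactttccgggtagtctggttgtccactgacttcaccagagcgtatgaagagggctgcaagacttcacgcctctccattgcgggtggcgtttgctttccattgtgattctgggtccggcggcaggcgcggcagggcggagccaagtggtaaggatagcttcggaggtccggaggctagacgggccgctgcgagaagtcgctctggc
Ndufs6 (chr13:73328453-73328732, minus strand): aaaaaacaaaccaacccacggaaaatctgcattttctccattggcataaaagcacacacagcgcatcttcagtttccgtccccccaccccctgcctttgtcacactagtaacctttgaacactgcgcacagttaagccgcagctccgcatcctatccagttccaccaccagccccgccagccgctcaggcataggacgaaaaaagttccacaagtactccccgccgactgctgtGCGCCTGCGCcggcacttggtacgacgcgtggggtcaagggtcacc

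In Cox6a1 the ETS letters, on the opposite strand, begin 16 bases before the start site, and NRF1 letters begin 162 and 117 bases before it. Cox8a has the ETS letters on the opposite strand 5 bases before the start site and again 32 bases after it, beyond the printed stretch. Ndufs6 has NRF1 letters 16 bases before the start site and YY1 letters 33 bases after it, also beyond the stretch. No match was found in the windows of Cox8b and Cox7a2. A match describes letters only, and no match says nothing about binding.

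Over the 76 windows of the 70 members, 23.7% held the NRF1 letters. The share was 4.60% over all 32851 windows of the promoter reference and 11.6% over the windows of other measured genes. That reference covers 27025 genes, more than the deposited table. For the YY1 letters the shares were 11.8%, 1.40% and 3.50%, and for the ETS letters 21.1%, 8.86% and 18.9%. At least 1 of the motifs was in 48.7% of member windows, 13.6% of all windows and 30.1% of windows of other measured genes. By complex, the NRF1 letters were found for 7 of 31 members of complex I, 2 of 3 of complex II, 1 of 5 of complex III, 1 of 14 of complex IV and 6 of 16 of complex V. The 35 members with a match were detected in a median of 21 cells and the 35 without one in a median of 22 cells; of each 35, 22 and 21 were detected in at least 19 cells.

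Complex I, the NADH dehydrogenase, was represented mostly by its accessory subunits. Of 35 members, 18 were detected in at least 19 cells, and the median of their medians was 1.37 FPKM. Of the 28 accessory subunits 17 reached that many cells, against 1 of the 7 core subunits, which carry the flavin and the iron-sulphur clusters. The median of the medians was 3.36 FPKM for accessory and 0.183 FPKM for core subunits. Ndufa3 was the highest, with a median of 74.1 FPKM over 37 cells and a highest value of 2174 FPKM in cell 32. Ndufb8, Ndufa6 and Ndufa7, further accessory subunits, followed with medians of 46.5, 44.0 and 29.7 FPKM. Ndufa6 was detected in 32 cells and Ndufb8 in 29, so both were present in most of the cells.

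Among core subunits Ndufs7, which holds the last cluster before ubiquinone, was the one that reached 28 cells, with a median of 4.16 FPKM. Ndufv1, the subunit that binds NADH, was detected in 4 cells, 2 of them above 10 FPKM (130.5 FPKM in cell 22 and 23.7 FPKM in cell 27). Ndufs1 and Ndufs3 were detected in 8 cells each. Ndufs1 stood at 703 FPKM in cell 30 and at 101 FPKM in cell 28, and Ndufs3 reached 468 FPKM in cell 30. The exons of Ndufs1 overlap those of Eef1b2 on the opposite strand, whose median was 14.7 FPKM, and the overlap's part in these values was not tested. Both subunits were thus high in a few cells and listed at or near 0 in the others. Ndufs6, an accessory subunit, was detected in 19 cells, and its highest value of 17778 FPKM stood in shallow cell 2.

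Complex II, succinate dehydrogenase, links the citric acid cycle to the chain. Sdhb, its iron-sulphur subunit, was detected in 30 cells, with 4 cells at 0, a median of 25.99 and a highest value of 545 FPKM in cell 31. The other subunits were seen in fewer cells. Sdha, the flavoprotein that binds succinate, was detected in 11 cells with a median of 0.10 FPKM and a highest value of 478 FPKM in cell 18. Sdhc and Sdhd, the membrane anchors, were detected in 14 and 17 cells, with medians of 0.10 and 0.29 FPKM and highest values of 480 FPKM in shallow cell 2 and 1006 FPKM in shallow cell 24. All 4 genes were detected together in 2 cells, and none in another 2. In most cells, 12 with 1 gene, 11 with 2 and 10 with 3, the complex was partly represented.

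Complex III, the cytochrome bc1 complex, split into widely and rarely detected members. Its 5 small accessory subunits were all detected in at least 19 cells, with a median of medians of 69.9 FPKM. Uqcrb, which binds near the ubiquinone site, was detected in 33 cells with a median of 87.2 and a highest value of 880 FPKM in cell 23. Uqcrh, the hinge protein beside cytochrome c1, had a median of 80.0 FPKM, and Uqcr11 and Uqcr10 had 69.9 and 50.4 FPKM. In contrast, the large subunits Uqcrc1 and Uqcrc2 and the Rieske iron-sulphur protein Uqcrfs1 were detected in 13, 10 and 10 cells, with medians of 0.39, 0.11 and 0.09 FPKM. The highest values of Uqcrc2 were 262 FPKM (cell 35) and 222 FPKM (cell 36).

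Complex V, the ATP synthase, had 13 of 17 members in at least 19 cells. The 5 subunits of the catalytic F1 part were all among them, with a median of medians of 25.2 FPKM. So were 8 of the 10 subunits of the membrane part and stalk; over all 10 the median of medians was 10.8 FPKM. Atp5j2 and Atp5k, small membrane subunits that serve dimer formation or stability, had the highest medians of 203 and 118 FPKM. Atp5k was all the same detected in 26 cells, fewer than the 32 of Atp5j2. Atp5e, the epsilon subunit of F1, had a median of 84.8 FPKM and Atp5h, of the stalk, 36.8 FPKM. Atp5b, the catalytic beta subunit, was detected in 28 cells with a median of 25.9 and a highest value of 546 FPKM in cell 5. Atp5s and Atp5sl, not subunits of the enzyme, were detected in 3 and 2 cells.

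Subunit c, which forms the rotating ring, is made from 3 genes whose mature proteins are the same. Atp5g3 was detected in 29 cells with a median of 12.5 FPKM, Atp5g1 in 18 cells with 0.861 FPKM and Atp5g2 in 15 cells with a median of 0. At least 1 of the 3 was detected in 33 cells: 1 gene in 14 cells, 2 in 9 and all 3 in 10. Over the 37 cells the pairwise rho was 0.35 for Atp5g1 with Atp5g2, 0.01 for Atp5g1 with Atp5g3 and 0.11 for Atp5g2 with Atp5g3. The 3 genes were therefore largely unrelated in which cells they marked, apart from the weak relation of the first pair. Cycs, cytochrome c itself, was detected in 13 cells (35.1%, interval 20.2% to 52.5%), with 10 cells at 0, a median of 0.07 and a highest value of 37.0 FPKM in cell 15. Its testis form Cyct, outside the set, was listed at 0 in all cells.

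**Figure D3:**
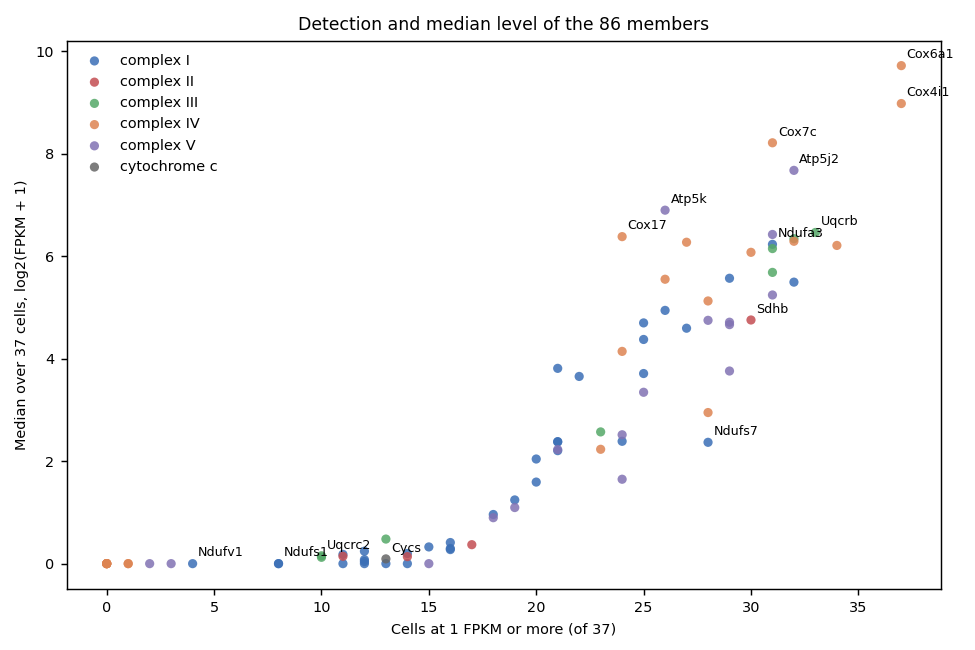
Median level over 37 cells, as log2(FPKM + 1), against the number of cells at 1 FPKM or more for each of the 86 members (points, coloured by complex). Cox6a1 and Cox4i1 stand at the upper right with 37 cells each, and large subunits such as Ndufv1 (4 cells), Ndufs1 (8) and Uqcrc2 (10) lie along the bottom with Cycs (13).

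Short genes were the higher ones on average. Over the 86 members the Spearman rho between coding length (from GENCODE M21) and mean log2(FPKM + 1) was -0.34, and over the 75 members detected in at least 5 cells it was -0.55. Over 4374 other measured genes with a length it was -0.29, so the direction was shared with the rest of the table. With the number of cells in which a member was detected, the rho was -0.28 over all 86 members. The median coding length was 246 bases for the 5 small complex III subunits and 1359 bases for the 3 rarely detected ones. Complex I core subunits had a median of 789 bases, accessory subunits 402 bases. As a group the F1 part went the other way at 1 FPKM, with a median of 894 bases and all members in at least 19 cells. At 10 FPKM, 3 of its 5 members reached that many cells. Within the F1 part, the shortest, Atp5e (156 bases), had the highest median level, 84.8 FPKM. The longest, Atp5a1 (1659 bases), had the lowest, 2.13 FPKM. FPKM divides by transcript length, and genes are not independent replicates.

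**Figure D4:**
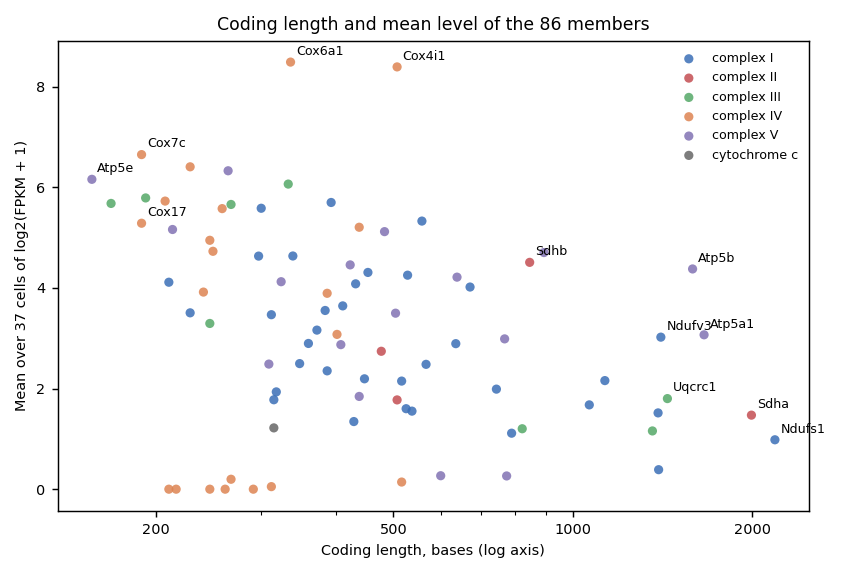
Mean over the 37 cells of log2(FPKM + 1) against coding length in bases (log axis) for each of the 86 members, coloured by complex. Levels fall with length overall (rho -0.34), with Atp5e and Cox7c at the upper left, Ndufs1 and Sdha at the lower right, and the tissue isoforms of complex IV along the bottom.

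In each cell the members together made up a small share of the FPKM sum. The share ran from 1.85% in cell 13 to 8.36% in cell 9, with a median of 3.59% and a mean of 3.74% ± 1.25 (SD over 37 cells, which are not replicates). In cell 9 the top member was Cox6a1, at 22464.5 FPKM. Cox6a1 was the top member in 17 cells, Cox4i1 in 3, and 12 further genes in the remaining cells. Averaged over cells, Cox6a1 held 11.3% of the members' share, and the first 14 members held 50.6%. The share varied little with the number of genes detected in a cell (rho 0.11, r -0.01, r without the 2 farthest cells 0.07, n = 37 cells that share their library's depth).

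Cells showed from 25 to 64 of the 86 members, with a median of 44. Cell 0 had 25, cells 23 and 26 had 27, cell 27 had 62, and cells 7 and 28 had 64. Cell 28 had 1 fibroblast gene detected, against 7 in cell 7 and 8 in cell 27; the part of the fibroblast genes in these counts was not tested. The mean of log2(FPKM + 1) over the members ran from 1.82 in cell 0 to 5.35 in cell 28, with a median of 3.01. Single highest values were spread over many cells. Of the 81 members with any value above 0, 24 had their highest in the 6 shallow cells. Cell 9 held the highest value of 8 members and cell 32 of 7, and neither was a shallow cell. The same count over all genes was not made.

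Members varied together to a small extent. For the 75 members detected in at least 5 cells, the mean Spearman rho over all 2775 pairs was 0.11. It was 0.029 over all 4694 measured genes and 0.049 between members and other measured genes. Pairs ranged from -0.44 for Cox6a1 with Ndufv3 to 0.61 for Cycs with Ndufa13, 73.8% were above 0 and 27 were at 0.5 or more. Atp5f1 with Ndufa6 (0.61) and Ndufa4 with Ndufc1 (0.59) came next. With the number of genes detected regressed out of each cell, the mean fell to 0.06, beside 0.0055 over all measured genes.

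Pairs in the same complex had a mean rho close to that of pairs from different complexes. The mean rho was 0.10 over 778 pairs within a complex and 0.11 over 1997 pairs between complexes. Within complexes it was 0.14 in complex III, 0.13 in complex V, 0.10 in complex I, 0.08 in complex II and 0.07 in complex IV. For comparison, genes of the cytosolic ribosome had a mean of 0.15, immediate early genes 0.23, and mitochondrial ribosome and glycolysis genes 0.08 each. All of these are descriptions over 37 cells that differ in depth.

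When a complex was summarised by its mean z value in each cell, the complexes went together more plainly. The rho was 0.78 between complexes IV and V, 0.77 between I and V, 0.72 between III and V, 0.71 between I and IV, 0.66 between III and IV and 0.63 between I and III (n = 37 cells; the matching r values lay between 0.68 and 0.82). Complex II stood apart with rho from 0.14 to 0.42, and it has only 4 members. These values were not set beside those of other gene sets. The part of the number of genes detected in them was not tested.

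The mean z value of all 75 measured members, the member score, followed the number of genes detected in the cell (rho 0.72, r 0.73, r without the 2 farthest cells, 7 and 28, 0.64). Within the putative library parts the rho was 0.71 and 0.74. It followed the mean z value of all other measured genes as closely (rho 0.75), but neither the FPKM sum (rho 0.03) nor the value of 1 fragment (rho -0.08). The relations to gene lists below share this dependence on detection. With the number of genes detected regressed out, the rho to the mitochondrial ribosome list was 0.74 and to the glycolysis list 0.35.

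Among the mitochondrial lists, the highest rho over all cells was that of the mitochondrial ribosome, which translates the subunits encoded in mitochondrial DNA. The rho was 0.82 and r 0.84 (r without the 2 farthest cells 0.80), with 0.81 and 0.82 inside the library parts. Without the shallow cells it was 0.78, under the 0.84 of the score with the number of genes detected. With scores and filters redone in the cells kept, it was lower: 0.68 and 0.71 inside the parts and 0.70 without the shallow cells. Of its 77 genes, 47 were measured and 3 detected in at least 19 cells, Mrpl33, Mrps21 and Mrpl42, with medians of 48.8, 26.3 and 3.41 FPKM. Import and cristae genes had a rho of 0.63 and 3 of 16 in at least 19 cells: Chchd2 (median 49.7 FPKM), Tomm6 (31.7 FPKM) and Tomm7 (4.92 FPKM). Assembly factors of the complexes had a rho of 0.59. None of 36 was detected in at least 19 cells, beside 4.03% of all genes. Cox14, in 13 cells, and Coa5, in 14, had the highest medians of this list.

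Fuel pathways that feed the chain were less widely detected than the chain itself. Citric acid cycle and pyruvate dehydrogenase genes had none of 17 in at least 19 cells, beside 4.03% of all genes. Mdh2, malate dehydrogenase, led the list, in 17 cells with a median of 0.711 FPKM. The rho of this list to the score was 0.32 over all cells, and 0.24 and 0.47 inside the first and second library parts. With scores and filters redone in each part it was 0.49 and 0.62. Fatty acid oxidation had 2 of 14, Etfb, which hands electrons from acyl-CoA dehydrogenases to the chain (median 30.7 FPKM), and Cpt1a, which admits fatty acids to mitochondria (1.41 FPKM); its rho was 0.56, and 0.31 with the number of genes detected regressed out. Membrane carriers had 5 of 12, with Ucp2, an uncoupling protein of macrophages, in all 37 cells at a median of 140 FPKM, followed by the phosphate carrier Slc25a3 at 31.7 FPKM and the ADP/ATP carrier Slc25a5 at 13.3 FPKM. Their rho was 0.53.

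Glycolysis genes had 5 of 19 in at least 19 cells: Gapdh, Aldoa and Ldha led with medians of 114, 90.3 and 68.9 FPKM. The glycolysis score rose and fell with the member score in these cells (rho 0.47, r 0.55, r without the 2 farthest cells 0.42), with 0.29 in the first and 0.60 in the second library part. Genes of peroxide and superoxide defence, which handle by-products of the chain, had 5 of 9 in at least 19 cells, with Gpx1 at a median of 5049 FPKM, Sod1 at 1057 FPKM and Gpx4 at 9.12 FPKM, and a rho of 0.66. The cytosolic ribosome, with 75 of 81 genes in at least 19 cells, led by Rps29, Rpl41 and Rpl32, had a rho of 0.54.

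**Figure D5:**
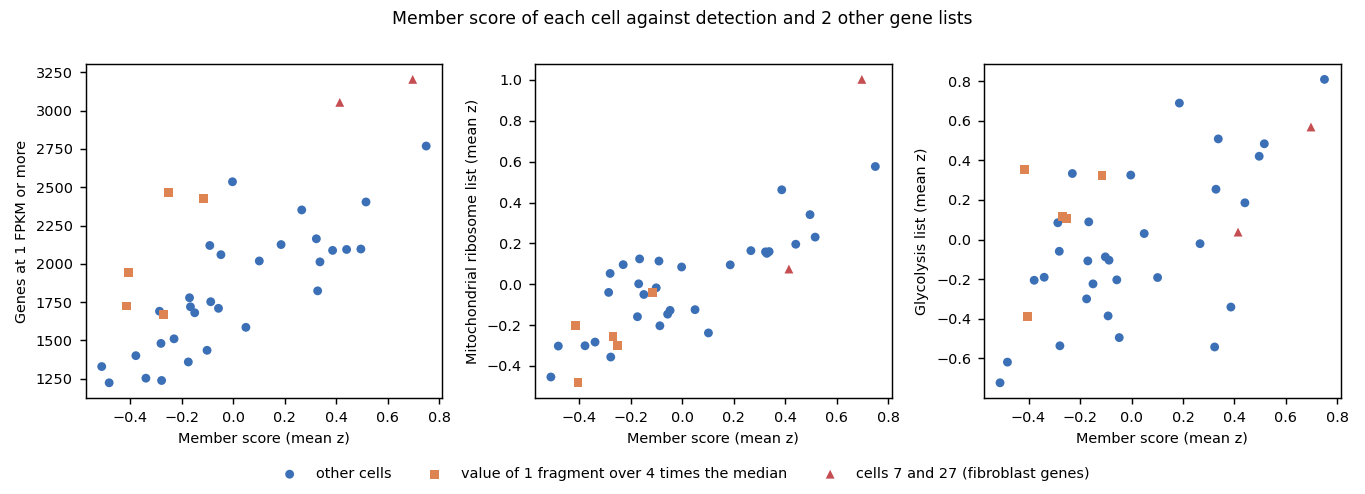
Member score (mean z value of 75 members, x axis) of each of the 37 cells against the number of genes detected, the mitochondrial ribosome score and the glycolysis score (y axes). Squares mark shallow cells other than cell 7 and triangles the 2 cells with fibroblast genes; over all 37 cells the rho is 0.72 with genes detected, 0.82 with the mitochondrial ribosome and 0.47 with glycolysis.

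The regulators of mitochondrial biogenesis were each detected in a minority of the cells or in none. None of 15 was found in at least 19 cells, beside 4.03% of all genes. Detection in at least 5 cells was reached by 5 of the 15, beside 19.6% of all genes. Ppargc1a, the coactivator that drives the programme in brown fat and muscle, was listed at 0 in every cell. Yy1, whose motif was searched above, was detected in 11 cells and Pprc1 in 7. The rho of this list to the score was 0.03, and it rests on the 5 genes that were measured. Taken singly, these ran from -0.15 for Yy1 to 0.55 for Ssbp1, which was detected in 10 cells. Subunits and partners outside the naming rule were found in the table for 4 genes: Atpif1, the inhibitor of ATP hydrolysis by complex V, was detected in 36 cells with a median of 362 FPKM, Usmg5, an ATP synthase membrane subunit, in 22, Cyc1, cytochrome c1 of complex III, in 7, and Ndufab1, the acyl carrier subunit of complex I, in 6.

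Other lists ran against the score or were unrelated to it. Immediate early genes, a class switched on rapidly by stimuli and stress, had a rho of -0.36 and an r of -0.37 (r without the 2 farthest cells -0.33). The list, led by Dusp1, Fos and Zfp36 with medians of 398, 199.8 and 125 FPKM, had 11 of 13 genes in at least 19 cells. The macrophage marker list had a rho of -0.18, which turned to 0.098 when the values of each cell were rescaled to a common sum. It was -0.0011 without cells 7 and 27 and -0.030 without the shallow cells, with scores redone in the cells kept.

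The genes most like the member score were found by Spearman rho over the 37 cells, among the 915 genes detected in at least 19 cells that are not members. The median rho of these candidates was 0.17, 76.3% were above 0 and 44 of them, 4.81%, were at 0.5 or more. The 10 with the highest rho were Myl6, a myosin light chain (0.68), Grcc10 (0.66), the proteasome subunit Psma4 (0.66), the chaperonin subunit Cct4 (0.62), the disulphide isomerase Pdia3 (0.60), S100a11 (0.60), Atpif1 (0.60), the import translocase component Tomm6 (0.59), the lipid droplet protein Plin3 (0.58) and the lipase Daglb (0.58). Of these, Atpif1 and Tomm6 encode mitochondrial proteins, and both were on the lists above. At the other end stood Cd74 (-0.47), H2-Eb1 (-0.46), Apoe (-0.45), C1qb (-0.44), Fosb (-0.43) and Csf1r (-0.43). These genes were chosen for naming after their values were seen. Without the cells holding fibroblast genes the values were, in that order, -0.39, -0.39, -0.37, -0.36, -0.48 and -0.35. Inside the first and second library parts they were -0.42 and -0.61 for Cd74, and -0.51 and -0.47 for H2-Eb1. For Apoe they were -0.22 and -0.64, and for Csf1r -0.18 and -0.64. For C1qb they were -0.57 and -0.20, and for Fosb -0.64 and -0.25. Cd74 and H2-Eb1 serve antigen presentation by MHC class II, Apoe carries lipid, and C1qb and Csf1r are macrophage genes. The macrophage list did not move as 1 block: the rho to the score was below 0 for 11 of its 15 genes and above 0 for Cd68 (0.33), Lyz2 (0.18), Emr1 (0.05) and Itgam (0.05).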

How the data were processed

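Single-cell RNA-seq values of 37 cells were taken from 1 table of FPKM that the authors deposited, fragments divided by transcript length and mapped total. Per the submitters' processing notes, STAR, Cuffnorm and the mouse build mm9 were used; the sources used here do not give versions, annotation, strand or the treatment of reads that map more than once. Reads shared between a member and a near-identical copy or an overlapping gene therefore leave its value uncertain.

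All samples carry the same labels, so they form 1 group and no test between groups was made. Values were transformed to log2(FPKM + 1) with a pseudocount of 1. Detection meant at least 1 FPKM, and measured genes were those with detection in 5 or more cells. The score of a list is the mean z value of its measured genes. Correlations are Spearman rho and Pearson r over cells, with no p-value. The value of 1 fragment in a cell was solved by least squares from the most frequent ratios of values between 0.005 and 1 FPKM in 650 of 666 pairs of cells, and the search for library parts compared 27 positions along the cell numbers. Genes named with values are the 4 highest by median and the 2 detected in fewest cells in each complex, all isoforms, Sdh genes, Cycs and Cox17, and outside the members the 10 most alike and the 3 highest of each pathway list; others were chosen after their values were seen. Coding lengths came from GENCODE M21 and replaced the protein lengths planned. Promoters came from RefSeq on GRCm38.p6, whereas FPKM were made on mm9, so the coordinates given are those of the promoter stretches on GRCm38.p6, and none were taken from the table. Of the 70 members matched, 3 were matched by synonym.

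The alternatives left out cells, kept 1 library part, and changed thresholds, pseudocounts, filters and scaling. Scripts were tested on simulated data. Python 3.11.15, pandas 2.3.3, scipy 1.17.1 and matplotlib 3.10.9 were used. The members, lists and named genes were chosen with earlier results of these data known, so no pattern here is independent support for those results.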

Additional observations from a re-analysis of the deposited data

How the results depend on the processing

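The count of members in at least 19 cells, or the same part of the cells kept, 50, ranged from 34 to 63 over 9 alternatives and was 5 at 100 FPKM, where a stricter threshold leaves fewer. The median share of the FPKM sum, 3.59%, was 5.69% when the 50 genes of highest median outside the set were left out of the sum, and ranged from 2.94% to 3.70% over the other 7 alternatives. The median level stayed between 2.83 and 3.87.

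The mean pairwise rho of members, 0.11, was 0.1001 without cells with fibroblast genes, 0.097 without shallow cells, 0.116 for genes in at least 10 cells, 0.099 with no filter, 0.116 after rescaling to a common sum, 0.103 after centring within library parts and 0.104 as Pearson r. It was 0.062 with the number of genes detected regressed out, which moved it by over 1.5 times. The rho between members and glycolysis, 0.47, with scores and filters redone in each setting, was 0.41 without cells with fibroblast genes, 0.54 without shallow cells, 0.27 and 0.55 within the library parts, 0.48 at a pseudocount of 0.1, 0.52 for genes in at least 10 cells, 0.43 after centring and 0.35 with the number of genes detected regressed out. The cause was not tested. With that number regressed out, the rho to the mitochondrial ribosome was 0.74, to import and cristae 0.57, to defence 0.59, to the cytosolic ribosome 0.38, to fatty acid oxidation 0.31 and to immediate early genes -0.42. Over 88 values for the 8 other lists 1 changed sign, the macrophage list, which reached 0.098 when rescaled. The rho of level with coding length, -0.34, was -0.55 for members in at least 5 cells, a choice that leaves out genes near 0, and -0.33 with transcript length. On the given strand alone 34.2% of member windows held a motif, beside 8.20% of all windows and 19.3% of those of other measured genes. The alternatives at 3% of a gene's mean, at 100 FPKM, without the top member, without cell 9, with transcript length and with centring were chosen after seeing the data.

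No paired analysis was possible because all cells form 1 group. The unknown fragment counts limit what a value of 0 or a low share of cells says, and 1 sample of cells says nothing about the spread between animals.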
